A study of Mus musculus with 6 samples.

Results

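Ppara was read by 1 linear probe, A_51_P348334, of the 50 probes on these arrays that target linear mouse transcripts, beside 14236 probes that target circular RNAs (circRNAs). The probe was printed as 10 spots on each array, at the same places on every array. It was chosen by the measured values described here, namely its m6A-bound signal in both groups, so its difference between the groups is given as a description with no test.

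The arrays measured retinas of C57BL/6J mice at postnatal day 17. In the OIR group (oxygen-induced retinopathy), pups breathed 75% oxygen between day 7 and day 12 and room air afterwards, and pups of the room air (RA) group stayed in room air throughout. No allele, transgene or drug differed between the groups. There were 3 samples in each group, and each sample pooled retinas from a pair of mice, so values of single animals are not resolved. Total RNA was split with an antibody against m6A (N6-methyladenosine) into a bound fraction (IP), labeled with Cy5, and an unbound fraction (Sup), labeled with Cy3, which were hybridized together on 1 array per sample. The dyes were exchanged on no array, so a dye effect and a fraction effect cannot be told apart. Both fractions were treated with RNase R, an exonuclease that degrades linear RNA, before labeling. The signal of a linear probe is therefore that of RNA left after digestion, and linear RNA cannot be told apart from any circRNA that holds the same sequence. In whole retina, fewer cells of a type and less RNA per cell also cannot be told apart.

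Ppara encodes peroxisome proliferator-activated receptor alpha (PPARα), a nuclear receptor that is activated by fatty acids. It pairs with a retinoid X receptor on DNA and turns on genes of mitochondrial and peroxisomal fatty acid oxidation. In the retina it is known as a regulator of lipid use, and its activation has been linked to protection of retinal vessels and neurons. N6-methyladenosine is a methyl mark on internal adenosines of RNA, written by a methyltransferase complex, removed by demethylases and read by proteins that act on splicing, translation and decay.

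The m6A-bound signal of Ppara was higher on every RA array than on every OIR array. Per array, the mean background-subtracted IP intensity over the spots was 29.0, 23.1 and 11.4 scanner units in RA, compared with 2.76, 5.62 and 4.15 on the OIR arrays. The group means were 21.2 ± 8.98 (SD, n = 3) for RA against 4.18 ± 1.43 (SD, n = 3) for OIR, a difference of -17.0 with a standard error of 5.25. The groups did not overlap: RA replicate 3, the dimmest RA array, was above OIR replicate 2, the brightest OIR array.

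Single spots on the RA arrays stood close together. In RA replicate 1 they ran from 23.2 to 33.2, with an SD of 3.32 over spots. In RA replicate 2 they ran from 16.7 to 27.2, with an SD of 3.10, after 1 spot at 15.1 was left out because the scanner software marked it as an outlier. In RA replicate 3 they ran from 6.80 to 15.5, with an SD of 2.45. The spots of an array are repeat readings of 1 sample and were not counted as replicates.

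On the OIR arrays the spots lay lower and nearer to zero. They ran from 0.244 to 5.52 in OIR replicate 1, from 1.26 to 9.34 in OIR replicate 2 and from 0.231 to 7.95 in OIR replicate 3. The spots of the groups overlapped only at the edge, where 4 OIR spots were above the lowest RA spot and 1 RA spot was below the highest OIR spot. The 45 negative-control spots of an array, which are designed to match no mouse RNA, had mean IP intensities of 0.630 to 1.53 on the RA arrays, against 0.267 to 0.817 on the OIR arrays.

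**Figure D1:**
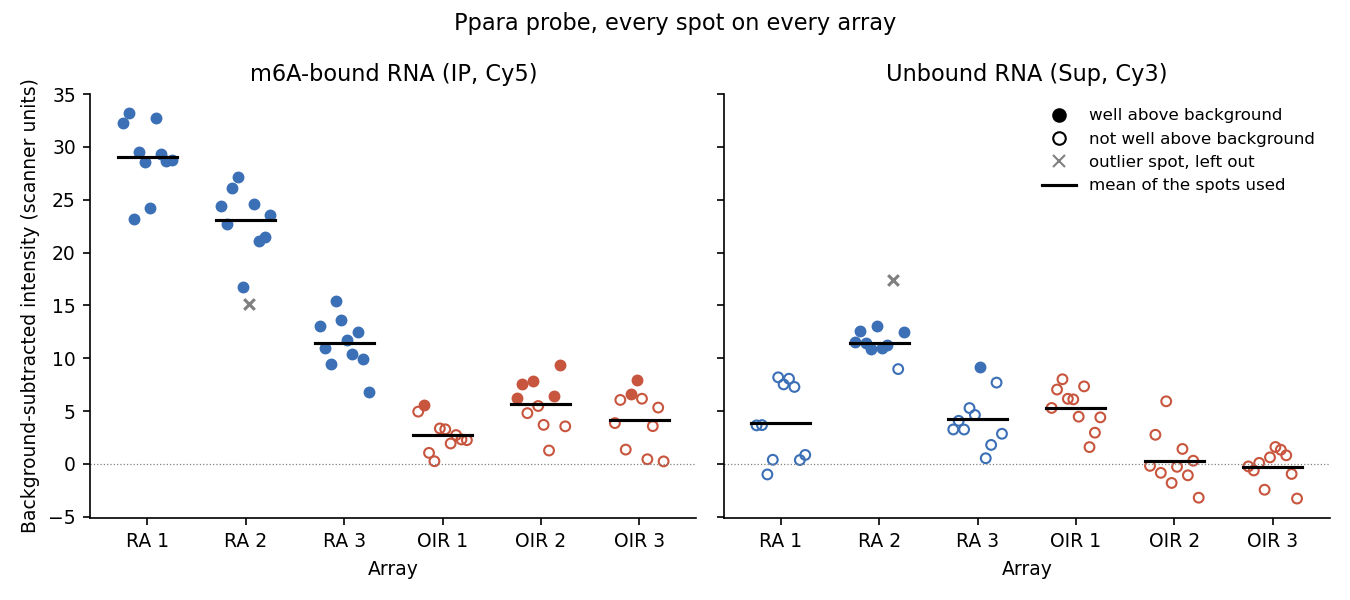
Background-subtracted intensity in scanner units of every spot of the Ppara probe on the 3 RA and 3 OIR arrays, with m6A-bound RNA (IP) in the left panel and unbound RNA (Sup) in the right panel. Filled points are spots well above background, open points are not, crosses are outlier spots that were left out, and the short bars are array means: the IP means are 11.4 to 29.0 on the RA arrays, against 2.76 to 5.62 on the OIR arrays, while the Sup means of the groups overlap.

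The scanner software marks each spot as well above background or not, from its signal and the spread of the background. In the IP channel, 30 of 30 Ppara spots on the RA arrays were well above background, and 8 of 30 on the OIR arrays, namely 1, 5 and 2 per array. A probe was counted as well above background on an array when more than 50% of its used spots were, so Ppara IP met this on all 3 RA arrays and on no OIR array. Of the 50 linear probes, 1 (2%) had this pattern, which was Ppara itself, and 0 had the reverse. Among the circRNA probes it was held by 112 of 14236 (0.787%), and the reverse by 0. These shares are the background to a probe that was selected on the same comparison, and nothing is read from them.

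The raw readings separated in the same way before any background was taken off. The median foreground IP intensity, averaged over the spots of the probe, was 42.3 ± 8.13 (SD, n = 3) for RA against 24.9 ± 5.33 (SD, n = 3) for OIR. The local background around the same spots was 15.2 ± 0.866 (SD, n = 3) and 14.7 ± 2.20 (SD, n = 3), which overlap. Across each array as a whole, between 51.7% and 74.2% of non-control spots carried the well-above-background flag for IP and between 50.7% and 74.2% for Sup. These ranges are not split by group, so they do not show whether fewer spots were flagged on the OIR arrays.

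To compare arrays, each channel was scaled so that the 102 probes taken for spike-ins, RNAs added in known amounts, had the same mean on the log2 scale. They were recognised here from their names only. The spike-ins had mean log2 IP intensities of 4.66, 4.91 and 3.77 on the RA arrays, against 4.08, 4.43 and 4.20 on the OIR arrays. The dimmest spike-ins were those of RA replicate 3, the array with the lowest RA value for Ppara. After scaling, Ppara IP was 17.0, 11.4 and 12.4 on the RA arrays, against 2.41, 3.86 and 3.36 on the OIR arrays. The RA arrays thus came closer to each other, at 13.6 ± 2.99 (SD, n = 3), and the OIR arrays stood at 3.21 ± 0.738 (SD, n = 3).

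On the log2 scale the scaled IP signal was 3.74 ± 0.306 (SD, n = 3) for RA against 1.66 ± 0.350 (SD, n = 3) for OIR, a difference of -2.08 with a standard error of 0.268. As a ratio of geometric means this is 4.24-fold, and 4.92-fold without scaling. Since IP was not well above background on the OIR arrays, their level was not measured. With each OIR array raised to its lowest IP signal well above background, which was 4.59, 4.09 and 5.16, the IP signal of Ppara was 2.91-fold lower in OIR than in RA. This is no minimum. A probe not well above background can exceed that lowest signal, and other treatments of background gave smaller differences.

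The size of this difference depended on how background was treated. It was -0.64 on foreground intensities with no background subtracted and -0.28 after normexp correction, a model-based background correction that adds an offset of 50. With values under 5 set to 5 it was -1.42. In each of these, as in the other settings tried, every RA array stayed above every OIR array. With the floor of 5 this was fixed in advance, because all OIR values were under 5 and all RA values above it.

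**Figure D2:**
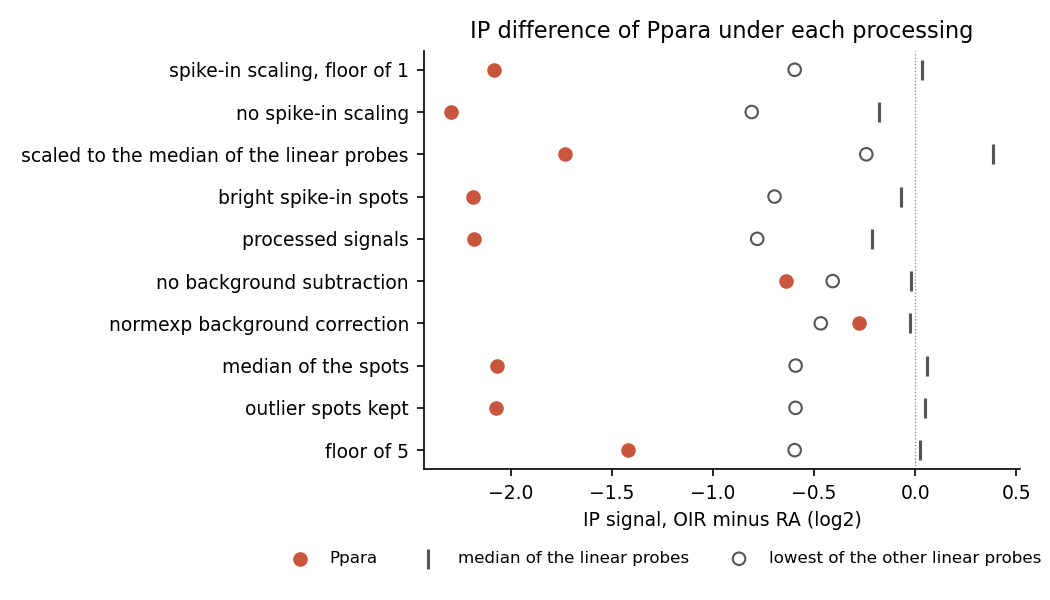
Difference in log2 IP signal between OIR and RA (x axis) for Ppara, for the median linear probe and for the lowest of the other linear probes, under the reported setting and each of the other settings (y axis). The linear probes here are those with IP well above background on all arrays of a group. Ppara lies furthest to the left except after normexp correction, where another linear probe is lower at -0.47, and its difference is -2.08 as reported, -0.64 with no background subtraction and -0.28 with normexp.

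In the IP channel the linear probes as a set had no common direction. Of the 30 linear probes with IP well above background on all arrays of a group, 13 were lower in OIR, and the median log2 difference was 0.03. This median depended on the scaling: it was -0.18 without scaling and 0.39 with channels scaled to the median of all linear probes. The difference of Ppara minus the median was -2.12 under each of these scalings, as it must be, because scaling shifts all probes of an array alike. Apart from Ppara the differences of the 30 ran from -0.60, for Actb (beta-actin, part of the cytoskeleton), to 0.65, for Chgb (chromogranin B of secretory granules). Dimmer linear probes outside the 30 fell further, with -1.24 for Nup50, -1.14 for A_51_P213099, -0.98 for Atg3 and -0.79 for Rps4l. Values under 1 had been set to 1, which held for Atg3 on all OIR arrays and for Nup50 on all but OIR replicate 1. The size of their falls is therefore not measured. The fall of A_51_P213099 (SE 0.838) came mostly from RA replicate 1, at 9.20 against 2.13 and 1.38 on the other RA arrays. No linear probe outside the 30 rose above 0.65. Every OIR array was below every RA array for 1 of the 30 (3.33%), which was Ppara, and above for 3, which were Mzb1, Il2 and A_51_P444920. Ppara was among the 30 through its RA arrays alone. Outside the 30, Nup50, Atg3, Rps4l and E2f1 also had every OIR array below every RA array. Their IP was dimmer, well above background on at most 1 RA array and on 0 OIR arrays. The separation was therefore not particular to Ppara among the linear probes.

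The circRNA probes gave a wider range. Of 7643 circRNA probes with IP well above background on all arrays of a group, 4504 were lower in OIR, with a median difference of -0.10, and every OIR array was below every RA array for 1480 (19.4%) and above for 807. Their differences ran from -2.81 to 2.07. The difference of Ppara was within the circRNA range: 10 of 7643 circRNAs were at or below its measured -2.08, and 72 were at or below -1.54, the difference that its raised OIR values give. The circRNA values were not raised in these counts.

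**Figure D3:**
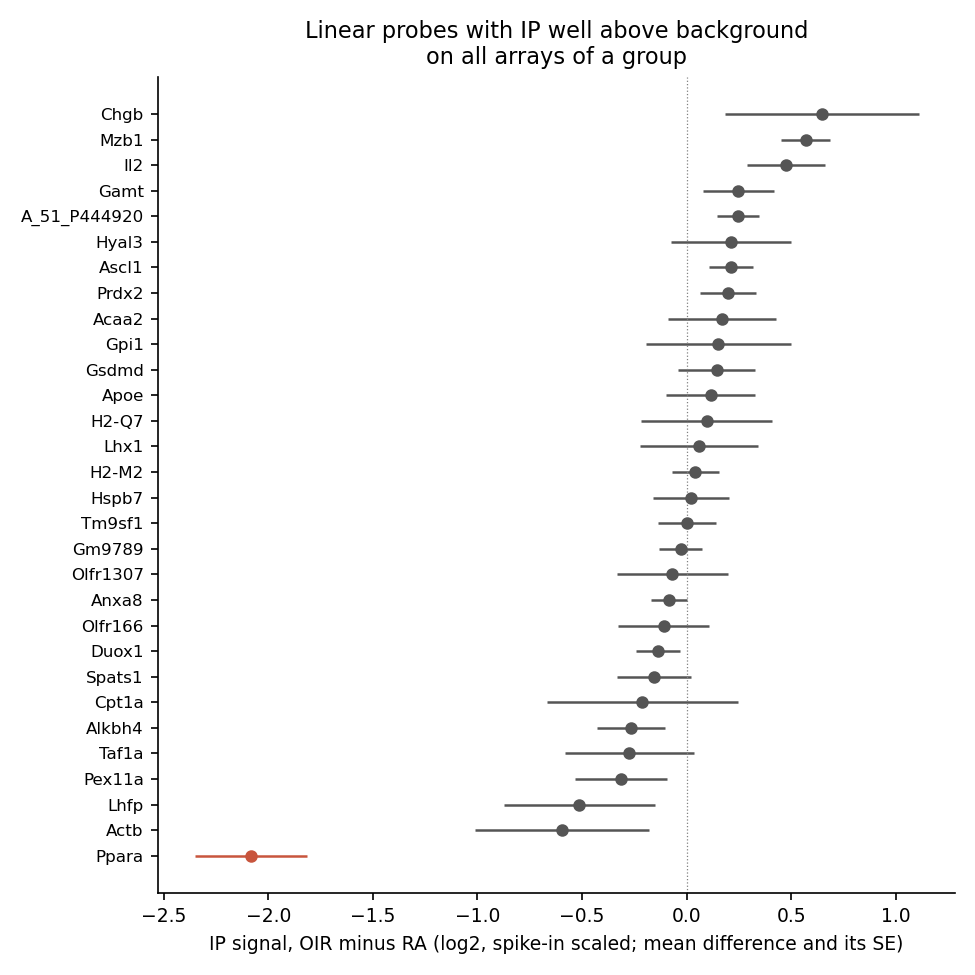
Difference in log2 spike-in scaled IP signal between OIR and RA (x axis) for the 30 linear probes with IP well above background on all arrays of a group, 1 probe per line, with the mean difference as a point and its standard error as a bar. Ppara is at -2.08, and the other linear probes drawn lie between -0.60 and 0.65.

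The unbound signal of Ppara was dim in both groups. The mean background-subtracted Sup intensity per array was 3.89, 11.5 and 4.25 on the RA arrays, against 5.33, 0.294 and -0.313 on the OIR arrays. In RA, 0, 9 and 1 of the spots were well above background, and in OIR none of the 30 were (0). Only RA replicate 2 therefore had a Sup level.

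The Sup values of the groups overlapped, since OIR replicate 1 was higher than RA replicates 1 and 3. The group means were 6.54 ± 4.27 (SD, n = 3) for RA against 1.77 ± 3.10 (SD, n = 3) for OIR. After scaling, Sup was 4.38, 10.6 and 8.04 on the RA arrays, against 5.62, 1 and 1 on the OIR arrays, where both low values had been raised to the floor of 1. The log2 difference was -2.02 with a standard error of 0.912, but no fold is given, because Sup carried that flag on 1 RA array and on 0 OIR arrays. Whether the unbound signal differed was not detectable at this signal over background.

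The m6A fraction of a probe was taken as scaled IP over the sum of scaled IP and Sup. The scaling gives the spike-ins the same mean log2 signal in IP and Sup, so the percentages are relative to it. Whether they equal the methylated share of the RNA was not tested. For Ppara in RA it was 79.5%, 51.7% and 60.6%, with a mean of 63.9% ± 14.2 (SD, n = 3). The value of RA replicate 2 rests on both channels, and those of RA replicates 1 and 3 are open upward because Sup was not well above background. With Sup raised on those arrays to the lowest Sup signal well above background, 13.9 and 14.7, the fraction was 55.0% in RA replicate 1 and 45.6% in RA replicate 3. These were taken as lower bounds. They are not strict, because a probe not well above background can have a Sup signal above that lowest one. The mean of these bounds and the measured 51.7% was 50.8% ± 4.76 (SD, n = 3).

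In OIR the same ratio came to 30.0%, 79.4% and 77.0%, or 62.2% ± 27.9 (SD, n = 3). These are ratios of signals that were well above background in neither channel on any OIR array, so they give no level of methylation, and no difference in m6A fraction between the groups is drawn from them. What separated the groups was the amount of m6A-bound Ppara signal, not a measured share of it.

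By mean m6A fraction in RA, Ppara took place 2 of the 26 linear probes with IP or Sup well above background on all RA arrays. These ranged from 16.7% to 64.7% with a median of 51.5%. Next above was Pex11a, a factor that divides and multiplies peroxisomes, at 64.7% ± 4.35 (SD, n = 3). Next below were Anxa8 (annexin A8, which binds membrane phospholipids) at 62.3% ± 2.09, Il2 (the T cell growth factor interleukin 2) at 59.8% ± 3.93 and the probe A_51_P444920, which has no gene name here, at 59.3% ± 1.34 (SD, n = 3 each). The spread of Ppara over arrays is larger than its distance to each of these neighbours, so their order is not resolved.

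The place of Ppara was itself unsteady. It was 1, 12 and 6 of 26 on RA replicates 1, 2 and 3, and 10 when RA replicate 1 was left out. At its lower bound of 50.8% the place was 14, with 13 linear probes above it. The other probes kept their own fractions there, some of them also with Sup not well above background in RA. Place 14 is therefore no bound on its place. On RA replicate 2, the array that measured both channels, Ppara was near the middle of the linear probes.

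**Figure D4:**
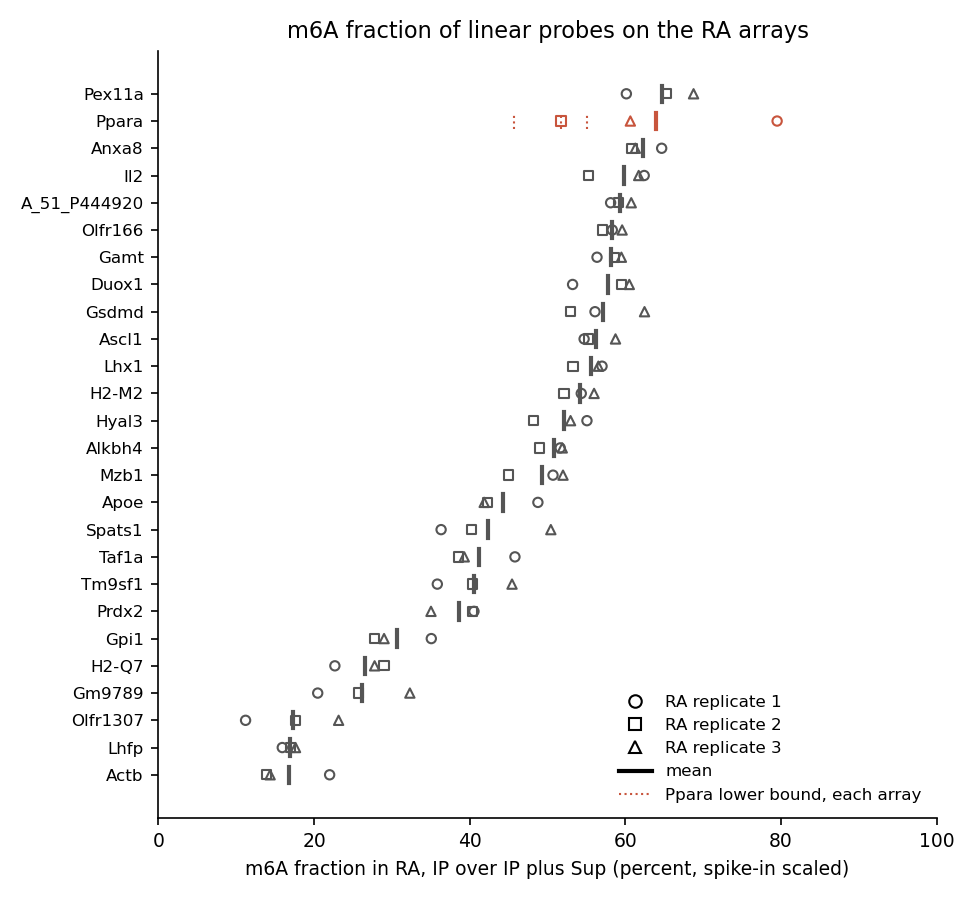
The m6A fraction in percent (x axis) on each RA array (symbols) of the 26 linear probes with IP or Sup well above background on all RA arrays (y axis, ordered by mean), with the mean as a thick bar and the lower bound of Ppara on each array as dotted bars. The arrays of Ppara spread from 51.7% to 79.5%, its bounds lie between 45.6% and 55.0%, and the means of the probes run from 16.7% to 64.7%.

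Within the linear set, Ppara was in the brighter part by IP signal on the RA arrays and in the dimmer part on the OIR arrays, where it was not well above background. By IP intensity it was at place 19, 19 and 21 of the 50 linear probes in RA, and at place 31, 30 and 32 on the OIR arrays. Brightness depends on the probe as well as on the RNA, so these places order signals and not amounts of transcript.

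Among the other linear probes with IP well above background on all 6 arrays, the pattern nearest to that of Ppara was sought by the root mean square difference of log2 IP deviations over the 6 arrays. The nearest were Actb at 0.801, Lhfp at 0.862 and Alkbh4 at 0.953. For scale, a flat profile, that of Bambi at the floor of 1 on all 6 arrays, stood at 1.08. These probes were therefore only slightly nearer to Ppara than a probe without signal. Ppara itself was not well above background in OIR, so requiring IP on all 6 arrays left out any other probe that lost its IP signal there. Without it, 3 linear probes were nearer than Actb, namely Nup50 at 0.571, Atg3 at 0.630 and Rps4l at 0.792, and their IP was well above background on at most 1 RA array and on 0 OIR arrays. They were named after their values had been seen. For Actb, scaled IP was 18.8, 7.78 and 9.07 in RA and 7.18, 8.66 and 6.17 in OIR, so RA replicate 1 stood above the other arrays and the groups overlapped. Lhfp had a log2 difference of -0.51 (SE 0.360), and Alkbh4 (a demethylase-family protein that acts on actin) had one of -0.26 (SE 0.163). In RA the m6A fraction was 16.7% ± 4.57 for Actb, 16.8% ± 0.861 for Lhfp and 50.8% ± 1.61 for Alkbh4 (SD, n = 3 each).

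Few partners or targets of PPARα could be set beside it. Of a list of 29 genes of the PPAR pathway, 1 had a linear probe, Cpt1a, which encodes the enzyme that commits fatty acids to entry into mitochondria. Its scaled IP signal was 13.4, 5.19 and 5.20 in RA and 6.03, 6.15 and 6.29 in OIR. The groups overlapped, with RA replicate 1 highest and the other RA arrays below all OIR arrays, and the log2 difference was -0.21 (SE 0.457). IP was well above background for Cpt1a on 2 RA and 3 OIR arrays. Its m6A fraction in RA was 40.4% ± 10.2 (SD, n = 3), with Sup well above background on 1 of the RA arrays.

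A further pair of linear probes outside that list, picked after their values had been seen, belong to the same metabolism. Pex11a, itself a target of PPARα, had scaled IP signals of 4333, 4667 and 3685 in RA and 4131, 3597 and 2608 in OIR, which overlap, with a log2 difference of -0.31 (SE 0.221). Acaa2, the thiolase of mitochondrial β-oxidation, had scaled IP signals of 8.67, 5.17 and 5.11 in RA and 7.34, 6.95 and 6.39 in OIR, with a log2 difference of 0.17 (SE 0.258). Neither these nor Cpt1a separated the groups.

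No gene had a linear probe in the lists of the m6A machinery (0 of 17 genes) and of angiogenesis in OIR (0 of 12). The same held for markers of retinal and other cell types (0 of 33), so the labelled tissue could not be checked against its markers here. Linear probes for genes that retina is not known for were still well above background, among them Il2 and the olfactory receptor Olfr166, with IP on all 6 arrays.

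The arrays were scanned in several sessions. The scan that held RA replicates 1 and 2 and OIR replicate 2 gave a log2 IP difference of -1.84 for Ppara, and the other scans held 1 array each. By day of scanning, the difference was -2.19 with RA replicates 1 and 2 against OIR replicates 1 and 2, and -1.88 with RA replicate 3 against OIR replicate 3. Since no RA array overlapped an OIR array, a lower OIR value in each of these was fixed, and only the sizes are informative. All RA arrays lay in the upper row of their slides and all OIR arrays in the lower row, so row and group cannot be told apart.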

How the data were processed

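The authors scanned 6 two-color arrays and deposited, for each of 15710 spots, the intensities and flags of Agilent Feature Extraction 11.0.1.1, which the submitters' processing notes name. The deposited intensity values used here are background-subtracted and are not normalized between arrays or dyes; dye-normalized processed intensities served as an alternative. No spot was saturated (0 spots).

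Outlier spots were left out and the remaining spots of a probe averaged. Each channel was scaled to a common mean log2 intensity of 102 spike-in probes (306 spots), as the methods state; that these are the spike-ins is inferred from their names. Values under 1 were set to 1 after scaling. A raised Sup or IP value was the higher of the probe's own and the lowest probe signal well above background on that array. The number of arrays limits the precision, and the sources do not say whether replicates were independent litters.

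Accessions of 46 of 50 linear probes matched a symbol in a RefSeq table (GRCm38.p6), and 4 did not. The files name no genome build, and no coordinates are given.

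Ppara, the gene lists and the settings were chosen with earlier results of these data known. Besides Ppara, the text names the linear probes next to it by m6A fraction in RA (up to 3 on each side), the 3 with the nearest IP pattern, and listed genes with a probe. Acaa2, Chgb, Mzb1, Olfr166, Nup50, Atg3, Rps4l, E2f1 and A_51_P213099 fall outside these rules and were named after their values were seen. Alternatives were other scalings, background corrections (normexp, limma 3.58.1 in R 4.3.3), spot summaries, floors, and arrays left out. Scripts used Python 3.11.15. The spot means, scaling and fraction were tested on simulated arrays with bright signals and every spot flagged well above background. That test did not cover the floor, the flags or the bounds.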

Additional observations from a re-analysis of the deposited data

How the results depend on the processing

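No result reversed. The IP difference of Ppara (-2.08) was computed under 19 alternatives and ranged from -2.30 to -0.28. It moved by more than the spread between arrays to -1.73 when channels were scaled to the median of the linear probes, to -0.64 without background subtraction, to -0.28 with normexp and to -1.42 with a floor of 5. The Sup difference (-2.02) moved to -0.12 without background subtraction, to -0.060 with normexp and to -0.53 with a floor of 5. The replicate block, which pairs arrays of the same number, left both differences at -2.08 and -2.02, and the numbers name arrays only. The m6A fraction in RA (63.9%) moved to 83.4% with processed signals and to 49.5% with normexp. Its lower bound (50.8%) moved to 65.5% without spike-in scaling, to 56.3% with scaling to the linear probes and to 77.0% with processed signals. The place by fraction (2) moved to 12 without background subtraction and to 12 with normexp, and ranged from 1 to 10 with each RA array left out in turn. The place by IP signal (19) ranged from 17 to 20 with each RA array left out. Both an added offset and unsubtracted background bring dim signals closer together by construction. Signal over background limits what can be said: the Sup level in RA rests on 1 array, and no OIR array gave a level in either channel.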
